A study of Mus musculus with 16 samples.

Results

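Nuclear receptors such as oestrogen receptor α (ERα) act on genes through coregulators, proteins that the receptor recruits to chromatin. Coactivators bind the receptor mostly when it carries an agonist and bring in enzymes that open chromatin or the Mediator complex, which contacts RNA polymerase II. Corepressors such as NCoR1 bind receptors without an agonist and bring in histone deacetylases, and RIP140 (*Nrip1*) binds receptors with an agonist and represses their targets. The best known coactivators are the p160 proteins, encoded by *Ncoa1*, *Ncoa2* and *Ncoa3*. Described here are 7 coregulator genes outside the p160 family, chosen by name, of 31274 genes in the table: the corepressor genes *Ncor1* and *Nrip1*, the coactivator genes *Ncoa4*, *Ncoa6*, *Ncoa7* and *Med1*, and *Pelp1*, which encodes a scaffold protein. All 7 had a mean above 1 FPKM (mapped fragments scaled to transcript length and to the depth of the sample) in at least 1 group, as did 15988 genes in all, and were therefore tested.

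RNA from seminal vesicles (SVs), the male accessory glands that secrete most of the fluid of semen, was sequenced in 16 samples of C57BL/6 mice at week 5. WT-veh and WT-DES mice were wild type and, per the methods, came from pregnant females bought from Charles River. The aERKO-veh and aERKO-DES mice lacked ERα in the whole body and came from heterozygous parents. In comparisons between genotypes, the lack of ERα and the source of the mice therefore cannot be told apart. In the DES groups pups were injected under the skin with diethylstilbestrol (DES), a synthetic oestrogen, from day 1 to day 5 after birth, each pup receiving 2 µg daily, and in the veh groups with the same volume of corn oil. Each group held 4 samples. For RNA extraction the methods describe individual mice in WT-veh, aERKO-veh and aERKO-DES and pools of mice in WT-DES. They name fewer pools than the 4 WT-DES samples in the table, so these 4 may not all be independent pools, and their spread may be that between pools.

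*Esr1*, the gene for ERα, was lower in every aERKO sample, at 0.91 to 1.75 FPKM, than in every WT sample, at 2.81 to 19.6 FPKM. The sum of FPKM over all genes ranged from 375200 to 437600 in WT-DES and from 479000 to 652700 in the other samples. The fragment counts behind the values are unknown, so the precision rests on the spread between samples. In bulk tissue, fewer cells of a type and less RNA per cell cannot be told apart. Markers of SV secretion were present in every sample, and 7 of them summed to at least 46170 FPKM in WT-veh samples and to at most 7708 FPKM in WT-DES samples. WT-DES sample 1 stood apart in smooth muscle markers, with a sum of 3580 FPKM against 791.1 to 1256 FPKM in the other WT-DES samples, and in skeletal muscle markers (327.4 against 35.7 to 85.3 FPKM). WT-veh sample 4 stood apart in skeletal muscle markers, at 1603 FPKM against 568.1 to 613.4 FPKM.

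A property of the samples bears on long transcripts, and 6 of the 7 genes have a longest annotated transcript of 4733 nt or more. Among 15026 tested genes with an annotated length, Spearman's rho was computed in each sample between transcript length and expression relative to the overall mean. The 4 WT-veh samples had a rho of −0.52 to −0.21 and the 4 WT-DES samples one of 0.16 to 0.19. It was −0.09 to 0.44 in aERKO-veh and −0.28 to 0.17 in aERKO-DES. Long transcripts were thus measured lower than short ones in all WT-veh samples, relative to the mean of the 16 samples. The median log2 change in WT-DES relative to WT-veh was −0.57 for 942 genes under 1000 nt and 0.49 for 449 genes of 8000 to 10000 nt. Each change is therefore given as deposited and after subtraction of this trend from every sample (length correction), and whether the trend is technical or biological was not tested.

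The largest changes with DES in WT were in *Ncoa7* and *Nrip1*, and their start regions are shown because both genes have more than 1 annotated start. The sequences are RefSeq promoter windows of GRCm38.p6 that run from upstream of a start site to just after it, printed on the strand of the gene. Motifs were chosen after the windows were seen and were searched on both strands, and FPKM is given per gene, so the values do not tell the starts apart. Capitals in the second *Ncoa7* window mark GAAA and GAAA 2 bases apart, the core of an interferon-stimulated response element, and those in the first *Nrip1* window mark GGTCA, an arm of an oestrogen response element. Both *Ncoa7* windows also hold GGTCA on the opposite strand, which reads TGACC in the sequence printed and is left in lower case, and the internal *Nrip1* window held none of the motifs searched. The first *Ncoa7* window is at the upstream end of the gene, where 2 transcripts of 1445 and 5105 nt start.
*Ncoa7*, chr10:30803277-30803576, minus strand: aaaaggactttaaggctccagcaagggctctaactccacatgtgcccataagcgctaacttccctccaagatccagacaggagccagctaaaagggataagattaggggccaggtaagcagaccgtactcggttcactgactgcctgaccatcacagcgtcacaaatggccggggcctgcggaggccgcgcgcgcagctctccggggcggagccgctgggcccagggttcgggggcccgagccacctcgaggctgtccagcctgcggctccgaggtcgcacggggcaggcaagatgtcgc
*Ncoa7*, internal start, chr10:30655818-30656117, minus strand: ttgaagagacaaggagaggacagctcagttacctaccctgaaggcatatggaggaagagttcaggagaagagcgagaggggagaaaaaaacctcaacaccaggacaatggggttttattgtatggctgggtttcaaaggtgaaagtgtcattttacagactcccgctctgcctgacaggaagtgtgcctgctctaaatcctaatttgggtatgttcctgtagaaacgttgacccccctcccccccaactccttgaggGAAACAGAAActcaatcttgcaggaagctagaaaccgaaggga
*Nrip1*, chr16:76373778-76374077, minus strand: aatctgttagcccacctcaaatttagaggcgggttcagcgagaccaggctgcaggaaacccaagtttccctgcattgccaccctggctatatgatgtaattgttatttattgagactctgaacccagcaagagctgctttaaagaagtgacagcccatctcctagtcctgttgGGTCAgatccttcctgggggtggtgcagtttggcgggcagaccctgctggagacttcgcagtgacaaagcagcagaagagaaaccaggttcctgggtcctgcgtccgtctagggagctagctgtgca
*Nrip1*, internal start, chr16:76373000-76373299, minus strand: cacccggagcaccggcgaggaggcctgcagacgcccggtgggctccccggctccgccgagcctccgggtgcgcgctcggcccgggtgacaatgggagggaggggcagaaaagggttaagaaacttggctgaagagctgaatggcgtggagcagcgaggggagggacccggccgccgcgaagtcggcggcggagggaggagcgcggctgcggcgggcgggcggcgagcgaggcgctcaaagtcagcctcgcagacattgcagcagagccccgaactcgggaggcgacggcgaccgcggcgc
The interferon core was in 3.44% of the 32851 windows of all genes, and among the 12 windows of the 7 genes also in 1 of *Ncoa4*. A full oestrogen response element (GGTCA and TGACC 3 bases apart) was in 0 of the 12 windows and in 0.07% of all windows. GGTCA alone was in 40.5% of all windows, so these matches are of a common kind. The windows differ in base composition. The first *Ncoa7* window has 63.3% G and C and 21 CpG, the internal one 48.3% and 4 CpG, the first *Nrip1* window 52.7% and 6 CpG and the internal one 73.3% and 40 CpG, against a median of 52.7% and 7 CpG over all windows. Annotated transcripts that start within 500 bases of the internal *Ncoa7* window number 6 and are 1239 to 3850 nt long. As background, the short form of *Ncoa7* is known as interferon inducible in other cells.

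With DES in WT, 3 of the 7 genes changed (limma, adjusted p of at most 0.05), all of them upwards: *Ncoa7*, *Nrip1* and *Ncor1*. Of all tested genes 73.8% changed and 36.4% rose, so 3 of 7 is below the share of all genes that changed and near the share that rose. *Ncoa7* and *Nrip1* also passed the 1.5-fold ratio of means (DEG thresholds), which 52.7% of all genes did. With the length correction 4 genes changed, *Ncoa7* and *Nrip1* upwards and *Med1* and *Ncoa4* downwards, against 73.1% of all genes. These calls depend on the transcript taken for the length. The median length of all annotated transcripts of each gene, coding or not, was a setting added after the data were seen. With it *Ncoa7*, *Nrip1* and *Ncor1* were called higher and *Pelp1* lower, against 73.0% of all genes. *Med1* (−0.11, adjusted p = 0.175) and *Ncoa4* (0.04, adjusted p = 0.769) then did not pass. On the longest coding transcript *Ncoa7* and *Nrip1* were called higher and *Med1*, *Ncoa4* and *Pelp1* lower, against 10567 of 14401 genes. The median log2 change of the 7 was 0.25 as deposited and −0.13 after the correction, and that of all tested genes as deposited was −0.01. Rescaling the samples to equal totals without the 20 highest genes moved the median of all genes in this comparison to 0.38 (0.11 in aERKO-veh relative to WT-veh) and that of the 7 to 0.65. Then 6 of the 7 were called higher, where 12207 of 16198 genes changed. Under quantile normalization 11273 of 15988 genes changed. Counts of other lists under these 2 scalings in WT-DES are to be read beside these shares.

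In aERKO-veh relative to WT-veh, 5 of the 7 rose and 0 fell: *Ncor1*, *Nrip1*, *Ncoa4*, *Ncoa6* and *Med1*. Here 26.1% of all genes changed and 10.8% rose. Of the 5 only *Nrip1* passed the 1.5-fold ratio, as 7.12% of all genes did. With the length correction 3 of the 5 were still called, *Nrip1*, *Ncoa4* and *Ncoa6*, against 11.5% of all genes, while on the median transcript all 5 were, against 21.1%. Of the cell type markers, 2 of 6 of skeletal muscle were higher (sums of 568.1 to 1603 FPKM in WT-veh and 581.0 to 1854 FPKM in aERKO-veh) and 2 of 5 of endothelium (63.9 to 71.8 and 67.1 to 106.5 FPKM). Of 6 epithelial markers 2 were lower and 1 higher (1459 to 1610 and 1123 to 1425 FPKM), and 1 of 6 leukocyte markers was lower (2897 to 3087 and 1639 to 2662 FPKM). Without *Cd52*, which made up most of them, the leukocyte sums were 60.4 to 89.1 and 43.9 to 55.6 FPKM. No marker of the secretory, anterior prostate, fibroblast, smooth muscle or adipose lists passed the test, and the secretory sum was 46170 to 54060 FPKM in WT-veh and 27580 to 43510 FPKM in aERKO-veh. The part of these markers in the 5 changes was not tested.

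In aERKO mice DES changed 1 of the 7, *Ncoa4*, which fell. Of all genes 2.85% changed and 1.52% fell, and *Ncoa4* was also among the 1.49% past the 1.5-fold ratio. Once corrected for length, *Ncoa4* was still the only gene of the 7 that changed, against 4.15% of all genes. Relative to WT-veh, the aERKO-DES samples had 1 gene changed, *Ncoa6*, which rose, where 8.06% of all genes changed and 4.77% rose. The same gene was called after the correction, against 7.59%. In that comparison 5 of 6 adipose markers were lower (sums of 129.6 to 682.2 FPKM in WT-veh and 15.6 to 42.3 FPKM in aERKO-DES), as were 3 of 6 fibroblast markers (730.8 to 881.2 and 495.8 to 593.7 FPKM), 2 of 6 leukocyte markers (2897 to 3087 and 1961 to 3485 FPKM) and 1 of 5 anterior prostate markers (7586 to 8790 and 5393 to 7566 FPKM). Without *Cd52*, which made up most of them, the leukocyte sums were 60.4 to 89.1 and 40.5 to 56.9 FPKM. The part of all these markers in the *Ncoa6* change was not tested.

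Relative to WT-DES, aERKO-DES had 2 higher genes, *Med1* and *Pelp1*, against 37.8% of all genes, and 1 lower gene, *Ncoa7*, against 36.2%. Under equal totals, which moved the median of all genes to −0.34, 0 were higher and 3 lower (*Ncoa7*, *Nrip1* and *Ncor1*), against 12105 of 16198 genes changed. Under quantile normalization 4 were higher, with *Ncoa4* and *Ncoa6* added, and 2 lower, with *Ncor1* added, against 11284 of 15988 genes changed. In all 74.0% of genes changed, and only *Ncoa7* of the 7 was among the 53.4% past the 1.5-fold ratio. After the correction *Ncoa6* was called as well, which made 4 genes against 76.0% of all. Nearly every marker list moved as well. All 7 secretory and 5 anterior prostate markers, 5 of 6 epithelial, 5 of 6 smooth muscle, 1 of 6 skeletal muscle and 1 of 6 leukocyte markers were higher in aERKO-DES, and all 6 fibroblast, 6 adipose and 5 endothelial markers and 5 of 6 leukocyte markers were lower. The sums were 2372 to 7708 FPKM in WT-DES and 30540 to 57800 FPKM in aERKO-DES for secretion, 764.8 to 1062 and 1357 to 1836 FPKM for epithelium and 1916 to 2091 and 495.8 to 593.7 FPKM for fibroblasts, and their part in the changes of *Med1*, *Pelp1* and *Ncoa7* was not tested. The signed log2 change with DES in WT was above that in aERKO (interaction) for 4 of the 7, *Ncoa7*, *Nrip1*, *Ncor1* and *Ncoa4*. For *Ncoa4* both changes were negative. Of all genes 71.5% had an interaction and 35.3% a positive one. *Ncoa7*, *Nrip1* and *Ncor1* differed by at least 1.5-fold, as did 56.4% of all genes. After the length correction the interaction was called for *Ncoa7* and *Nrip1* upwards and for *Med1* downwards, against 70.9% of all genes. On the median transcript it was called for *Ncoa7*, *Nrip1*, *Ncor1* and *Ncoa4* upwards and for *Pelp1* downwards, against 70.4%, and not for *Med1*. On the longest coding transcript it was called for *Ncoa7* and *Nrip1* upwards and for *Med1*, *Ncoa6* and *Pelp1* downwards, against 10231 of 14401 genes. Without length correction, 6 were positive and 0 negative under equal totals, where the median of all genes was 0.51 and 11780 of 16198 were called. Under quantile normalization 3 were positive and 1 negative, against 10255 of 15988 genes called. These comparisons share samples, so their counts are not independent of each other.

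**Figure D1:**
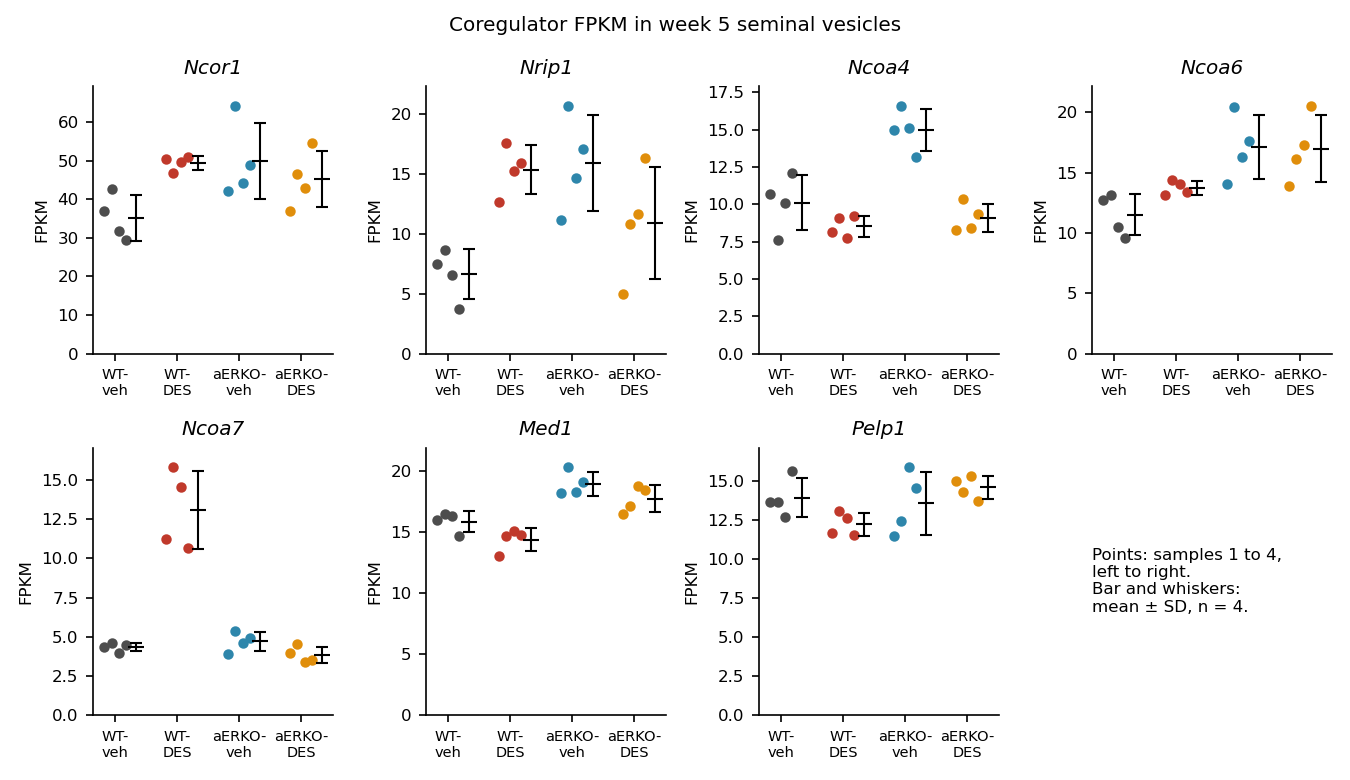
FPKM of the 7 coregulator genes (vertical axes, linear from 0) in each of the 16 samples, by group. Points are samples 1 to 4 from left to right, and the bar with whiskers is the mean ± SD (n = 4). *Ncoa7* stands at 10.7 to 15.8 FPKM in WT-DES and at 5.38 FPKM or less in every other sample, and *Ncoa4* at 13.2 to 16.6 FPKM in aERKO-veh and at 12.1 FPKM or less elsewhere.

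*Ncoa7* encodes a coactivator that binds ERα and has a TLDc domain, which is known for a role in resistance to oxidative stress. It lies on chromosome 10 from 30628999 to 30803326 (minus strand, GRCm38, GENCODE M21), 25.6 Mb from *Esr1* on the same chromosome. Samples 1 to 4 of WT-veh had 4.31, 4.60, 3.99 and 4.47 FPKM, against 11.2, 15.8, 14.5 and 10.7 FPKM in WT-DES. Values were 3.92, 5.38, 4.58 and 4.94 in aERKO-veh and 3.95, 4.54, 3.38 and 3.52 in aERKO-DES. Every WT-DES sample was thus above every other sample, while the other 3 groups overlapped. Within WT-DES, samples 1 and 4 were the lower ones.

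The ratio of mean *Ncoa7* FPKM in WT-DES to that in WT-veh was 3.01, and the log2(FPKM + 1) change was 1.38 (SE 0.12, limma adjusted p = 1.26e-07). The interaction was 1.62 (SE 0.17, adjusted p = 1.39e-06), and aERKO-DES was lower than WT-DES by a log2 change of −1.53 (adjusted p = 3.3e-08). These 3 results had the lowest adjusted p of their comparisons among the 7 genes and kept their call in every alternative run. The change in aERKO-veh relative to WT-veh was 0.09 (SE 0.12, adjusted p = 0.633) and that with DES in aERKO was −0.23 (SE 0.12, adjusted p = 0.239). At the length of the longest *Ncoa7* transcript, 7043 nt, the trend of all genes in WT-DES relative to WT-veh was 0.37. After its subtraction the *Ncoa7* change was 1.01 (SE 0.12, adjusted p = 2.71e-06) and the interaction 1.12 (adjusted p = 3.83e-05). The transcript of 7043 nt does not start within 500 bases of either *Ncoa7* window shown, where the longest have 5105 and 3850 nt. On the median transcript, 2423 nt, the change was 1.21 (adjusted p = 3e-07).

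Because FPKM is scaled per length, levels can be set side by side between genes, within the limits that the length trend differed between samples and that the transcript lengths of several of the 7 are uncertain. *Ncoa7* was the lowest of the 7 by mean in WT-veh, aERKO-veh and aERKO-DES and the fifth of 7 in WT-DES, where it overlapped with *Ncoa6* above it and *Pelp1* below it. Its share of the summed FPKM of the 7 genes, a quantity that a scaling of whole samples leaves as it is, lay between 4.23% and 4.99% in WT-veh, between 8.44% and 12.0% in WT-DES, between 3.36% and 3.65% in aERKO-veh and between 2.58% and 3.97% in aERKO-DES. Of the exonic bases of *Ncoa7* 0.738% are shared with *Hint3*, a gene on the same strand.

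Several marker lists moved in the same comparison. In WT-DES relative to WT-veh 5 of 6 leukocyte markers rose, and the sum of the list without *Cd52* went from 60.4 to 89.1 FPKM in WT-veh to 279.4 to 442.9 FPKM in WT-DES. *Cd52* was 2837 to 3022 FPKM in WT-veh and 282.2 to 568.2 FPKM in WT-DES, and it is also known as a product of the male tract epithelium. All 6 fibroblast markers rose (sums of 730.8 to 881.2 and 1916 to 2091 FPKM), as did 5 of 5 endothelial markers (63.9 to 71.8 and 116.0 to 194.6 FPKM) and 4 of 6 adipose markers (129.6 to 682.2 and 538.1 to 1318 FPKM). Of 6 epithelial markers 5 fell (1459 to 1610 and 764.8 to 1062 FPKM), as did 7 of 7 secretory markers. Anterior prostate markers fell in 5 of 5 (7586 to 8790 and 131.2 to 734.1 FPKM), smooth muscle markers in 5 of 6 (2993 to 3734 and 791.1 to 3580 FPKM) and skeletal muscle markers in 2 of 6 (568.1 to 1603 and 35.7 to 327.4 FPKM). Per the methods the SVs were separated from the anterior prostate, and the values do not tell which tissue expressed the genes of that list. No marker of these lists was at 0 in all samples of a group. Their part in the changes of *Ncoa7*, *Nrip1* and *Ncor1* was not tested. Without WT-DES sample 1, which was high in smooth muscle markers, the log2 change was 1.44 for *Ncoa7*, 1.23 for *Nrip1* and 0.48 for *Ncor1*, with adjusted p of 1.84e-07, 0.00253 and 0.0113.

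*Nrip1* encodes RIP140, a corepressor that binds ERα and other receptors with an agonist and is itself known as an oestrogen target in breast cancer cells. It lies on chromosome 16 from 76287400 to 76373827 (minus strand). Its FPKM was 7.50, 8.67, 6.55 and 3.76 in WT-veh and 12.7, 17.6, 15.3 and 15.96 in WT-DES. It was 11.2, 20.7, 14.7 and 17.1 in aERKO-veh and 4.94, 10.8, 11.6 and 16.4 in aERKO-DES. WT-veh was below WT-DES and aERKO-veh with no overlap, and aERKO-DES overlapped with all 3 other groups. *Nrip1* had the widest range of the 7 over the 16 samples, 5.51-fold.

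DES raised *Nrip1* in WT by a log2 change of 1.14 (SE 0.29, adjusted p = 0.00212) and aERKO-veh was above WT-veh by 1.17 (SE 0.29, adjusted p = 0.0122). Both changes are relative to the same 4 WT-veh samples, and their difference was not tested. The change with DES in aERKO was −0.57 (SE 0.29, adjusted p = 0.222), and the interaction was 1.72 (SE 0.40, adjusted p = 0.00151). The trend of all genes at 7868 nt, the length of its longest transcript, was 0.42 in WT-DES and 0.28 in aERKO-veh. After the length correction the changes were 0.72 (SE 0.23, adjusted p = 0.0115) and 0.88 (SE 0.23, adjusted p = 0.0295), and the interaction was 1.16 (SE 0.33, adjusted p = 0.00585).

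The order of the *Nrip1* values within WT-veh, aERKO-veh and aERKO-DES was the same as the order of the samples by their length trend, and in WT-DES it was not. aERKO-DES sample 1, the lowest of its group in *Nrip1*, also had the lowest length trend of the group, with a rho of −0.28. Without it *Nrip1* was called higher in aERKO-DES than in WT-veh, with a log2 change of 0.90 and an adjusted p of 0.0256, against 0.59 and 0.199 with all samples. Without aERKO-DES sample 4, *Nrip1* was called lower in aERKO-DES than in WT-DES (−0.76, adjusted p = 0.0252), against −0.55 and 0.0954 with all samples.

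**Figure D2:**
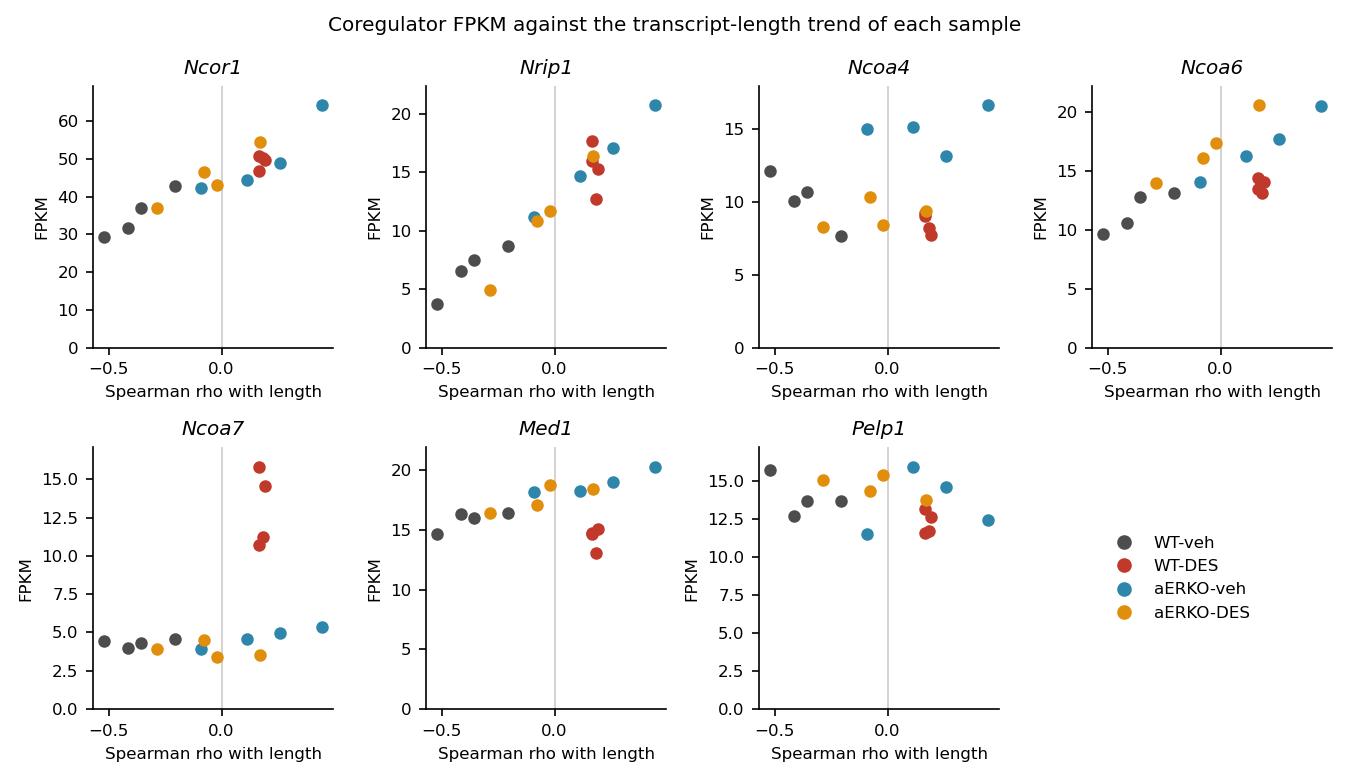
FPKM of each coregulator gene (vertical axes, linear from 0) against Spearman's rho between transcript length and relative expression over 15026 genes in the same sample (horizontal axes). Each point is 1 sample, coloured by group. *Ncor1*, *Nrip1* and *Ncoa6* are lowest in the WT-veh sample with the lowest rho (−0.52), whereas in the *Ncoa7* panel the 4 WT-DES samples (10.7 to 15.8 FPKM) lie above all others and in the *Med1* panel they lie at 13.0 to 15.1 FPKM, below the aERKO samples of like rho.

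*Ncor1* encodes NCoR1, the platform of the corepressor complex with histone deacetylase 3. The gene lies on chromosome 11 from 62316426 to 62458541 (minus strand), has the longest transcript of the 7, 9037 nt, and was the highest of the 7 by mean in all 4 groups, with no overlap with the next gene. Its FPKM was 37.0, 42.8, 31.8 and 29.4 in WT-veh, 50.4, 46.8, 49.8 and 50.9 in WT-DES, 42.2, 64.2, 44.3 and 48.8 in aERKO-veh and 37.1, 46.5, 43.0 and 54.5 in aERKO-DES. WT-DES was above WT-veh without overlap, and the other groups overlapped with their neighbours. Of its exonic bases 0.648% are shared with *Pigl* and *Ttc19* on the opposite strand.

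As deposited *Ncor1* rose by 0.49 in WT-DES (SE 0.14, adjusted p = 0.00529) and by 0.49 in aERKO-veh (SE 0.14, adjusted p = 0.0222), and its interaction was 0.62 (SE 0.20, adjusted p = 0.0111). The trend of all genes at 9037 nt was 0.47 in WT-DES, 0.32 in aERKO-veh and 0.62 for the interaction, close to the *Ncor1* change in WT-DES and to its interaction and below its change in aERKO-veh. Length-corrected changes were 0.03 (SE 0.08, adjusted p = 0.78), 0.16 (SE 0.08, adjusted p = 0.192) and 0.00 (SE 0.11, adjusted p = 0.987). With the median length of its annotated transcripts, 793 nt, in place of the longest, the change in WT-DES was 0.71 (adjusted p = 0.000986). That in aERKO-veh was then 0.60 (adjusted p = 0.0204) and the interaction 0.91 (adjusted p = 0.00236). The 793 nt is a median over all 25 annotated transcripts, of which 15 are coding, with a coding median of 2979 nt. The longest transcript is itself coding, and on the longest coding transcript the change in WT-DES was 0.01 (adjusted p = 0.899). The *Ncor1* result thus depends on which of its 25 annotated transcripts gives the length. The call in aERKO-veh was lost without WT-veh sample 3, WT-veh sample 4 or aERKO-veh sample 2, at changes of 0.44, 0.41 and 0.36 (adjusted p of 0.0663, 0.0725 and 0.079).

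**Figure D3:**
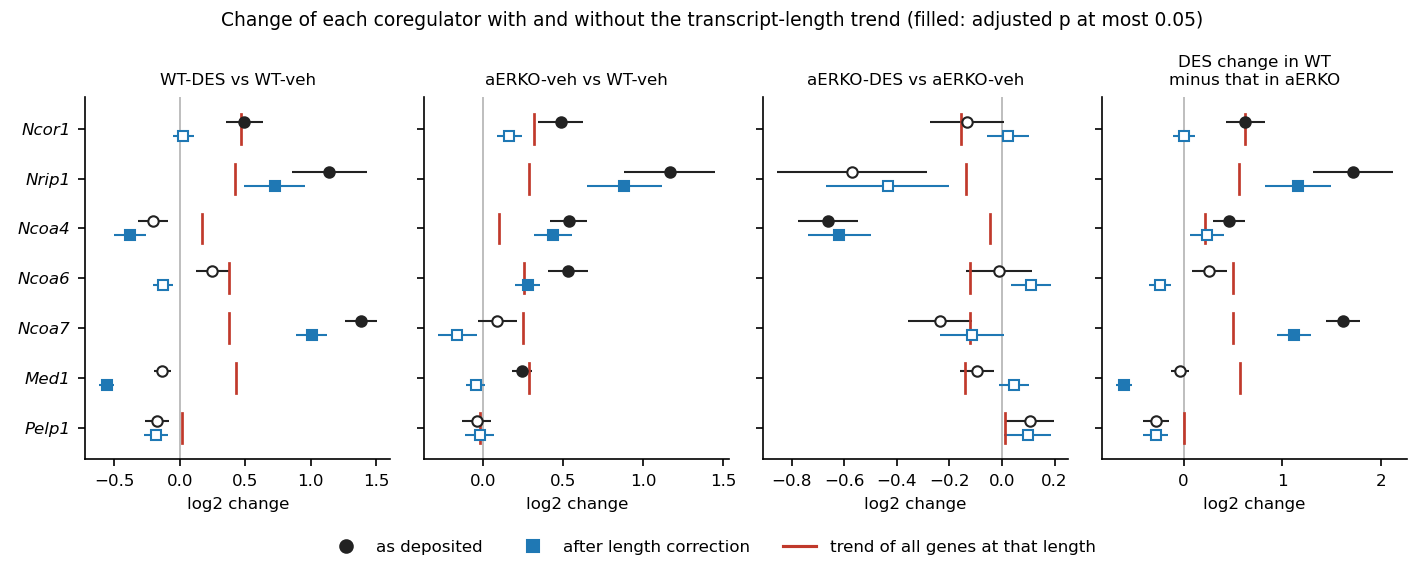
Log2 change of each gene as deposited (black circles) and after the length correction (blue squares) in 3 comparisons and the interaction, with bars of 1 SE. Filled symbols passed an adjusted p of 0.05, and the red line is the trend of all genes at the length of that gene. In WT-DES the *Ncor1* change of 0.49 lies on the trend of 0.47, those of *Ncoa7* (1.38) and *Nrip1* (1.14) lie above theirs, and that of *Med1* (−0.13) lies below its trend of 0.43.

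*Med1* encodes the Mediator subunit that contacts nuclear receptors directly. It lies on chromosome 11 from 98152154 to 98193293 (minus strand). Its FPKM was 15.99, 16.4, 16.3 and 14.6 in WT-veh, 13.0, 14.7, 15.1 and 14.7 in WT-DES, 18.2, 20.3, 18.2 and 19.0 in aERKO-veh and 16.4, 17.1, 18.8 and 18.5 in aERKO-DES. These are narrow ranges, with SDs of 5.17% to 6.28% of the mean. aERKO-veh was above WT-veh, and aERKO-DES above WT-DES, with no overlap.

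The *Med1* change in WT-DES was −0.13 as deposited (SE 0.06, adjusted p = 0.0767), where the trend at its 8024 nt was 0.43, and −0.56 after the correction (SE 0.06, adjusted p = 5.69e-07). Without WT-veh sample 4, the one high in skeletal muscle markers, the deposited change was −0.17 and passed (adjusted p = 0.0377). *Med1* was higher in aERKO-veh than in WT-veh by 0.24 (SE 0.06, adjusted p = 0.0161), a call lost without WT-veh sample 4 or aERKO-veh sample 2 (adjusted p of 0.0523 and 0.0595) and at −0.05 after the correction (adjusted p = 0.644). It was higher in aERKO-DES than in WT-DES by 0.28 (SE 0.06, adjusted p = 0.00106), and by 0.56 after the correction (adjusted p = 4.35e-07). The interaction was −0.04 (SE 0.09, adjusted p = 0.722) as deposited and −0.60 (SE 0.08, adjusted p = 1.21e-05) after the correction. The corrected changes rest on the longest transcript, which is also the longest coding one. *Med1* has 7 annotated transcripts, of which 3 are coding, with a coding median of 5845 nt. On the median of its transcripts, 1372 nt, the *Med1* change was 0.31 in aERKO-veh (adjusted p = 0.013), −0.11 in WT-DES (adjusted p = 0.175) and −0.11 with DES in aERKO (adjusted p = 0.354), and the interaction had an adjusted p of 1.00. With the samples rescaled to equal totals the deposited *Med1* change in WT-DES was 0.28, below the median of all genes of 0.38 under that scaling.

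Other subunits of Mediator were measured as a list. Of 32 tested subunits 23 fell and 5 rose with DES in WT, where 37.3% of all genes fell and 36.4% rose, with a median log2 change of −0.37, against −0.01 for all genes. Length-corrected values gave 19 that fell and 6 that rose, where 73.1% of all genes changed. Under the scaling to equal totals 8 fell and 14 rose, where 12207 of 16198 genes changed. The median of the list was then 0.34 below that of all genes on the log2 scale. The largest riser was *Med13l*, of the kinase module, with means of 4.85 and 12.4 FPKM in WT-veh and WT-DES (log2 change 1.20, SE 0.11), and the largest faller *Med28*, at 34.2 and 14.7 FPKM (−1.17, SE 0.12). In aERKO-veh relative to WT-veh 14 fell and 7 rose, where 15.2% of all genes fell and 10.8% rose. The length correction left 5 that fell and 2 that rose, against 11.5% of all genes changed, with the median going from −0.21 to −0.05. Under equal totals 3 fell and 7 rose, against 4162 of 16198 genes, with a median 0.15 below that of all genes. With DES in aERKO 1 fell and 1 rose, where 2.85% of all genes changed. Under equal totals 1 fell and 0 rose there, and under quantile normalization 0 passed.

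*Ncoa4* encodes a coactivator of nuclear receptors that is better known as the receptor that takes ferritin to the lysosome for the release of iron. It lies on chromosome 14 from 32159865 to 32179855 (plus strand). Its FPKM was 10.7, 7.63, 10.1 and 12.1 in WT-veh, 8.17, 9.05, 7.72 and 9.21 in WT-DES, 15, 16.6, 15.1 and 13.2 in aERKO-veh and 8.25, 10.3, 8.43 and 9.33 in aERKO-DES. Every aERKO-veh sample was above every other sample, and the other 3 groups overlapped.

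*Ncoa4* was higher in aERKO-veh than in WT-veh by 0.54 (SE 0.11, adjusted p = 0.00861), and DES in aERKO lowered it by a log2 change of −0.66 (SE 0.11, adjusted p = 0.0341), a ratio of means of 0.607. After the length correction the changes were 0.44 (SE 0.12, adjusted p = 0.0338) and −0.62 (SE 0.12, adjusted p = 0.027). The fall with DES in aERKO had the same direction when any 1 sample was left out, at −0.72 to −0.61, but the call was lost without WT-veh sample 3 (0.053), aERKO-veh sample 2 (0.133) or 4 (0.116), or aERKO-DES sample 1 (0.0804), 2 (0.0531) or 3 (0.122), where the values are adjusted p. In the same comparison 4 of 6 skeletal muscle markers fell, with sums of 581.0 to 1854 FPKM in aERKO-veh and 477.8 to 677.7 FPKM in aERKO-DES, and 4 of 6 adipose markers fell, with sums of 64.6 to 693.5 and 15.6 to 42.3 FPKM. Also called lower were 1 of 6 fibroblast markers (598.5 to 980.0 and 495.8 to 593.7 FPKM), 1 of 5 endothelial markers (67.1 to 106.5 and 63.3 to 73.3 FPKM) and 1 of 5 anterior prostate markers (5906 to 8245 and 5393 to 7566 FPKM). Their part in the *Ncoa4* change was not tested.

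With DES in WT the *Ncoa4* change was −0.21 (SE 0.11, adjusted p = 0.117), or −0.38 (SE 0.12, adjusted p = 0.0105) after the correction, and without WT-veh sample 2, the lowest of its group, it was −0.32 (adjusted p = 0.00922). The interaction was 0.46 (SE 0.16, adjusted p = 0.0206) as deposited and 0.24 (SE 0.17, adjusted p = 0.217) after the correction. The longest annotated *Ncoa4* transcript, of 4733 nt, has 1 exon, the longest protein-coding one has 4065 nt and the median of all is 661 nt.

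Among 5 genes of iron handling, 4 fell and 1 rose with DES in WT, where 37.3% of all genes fell and 36.4% rose. *Fth1* and *Ftl1*, the ferritin subunits that the NCOA4 protein binds (the heavy subunit directly), had means of 590.8 and 321.5 FPKM in WT-veh and 358.5 and 208.1 FPKM in WT-DES (log2 changes −0.73, SE 0.13, and −0.64, SE 0.14). *Tfrc*, the transferrin receptor, fell by 1.25 on the log2 scale (SE 0.21). *Slc40a1*, the iron exporter ferroportin, rose from 2.03 to 15.6 FPKM (log2 change 2.44, SE 0.15), and *Ireb2*, an iron-responsive regulator of mRNAs, went from 26.8 to 20.5 FPKM (−0.37, SE 0.10). Under quantile normalization the direction of the list turned, with 3 of the 5 higher and 1 lower, and under equal totals 1 was higher and 2 were lower. After the length correction *Ftl1* no longer passed (−0.16, adjusted p = 0.159) and the other 4 did.

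*Ncoa6* encodes a coactivator that is a subunit of the MLL3/MLL4 histone H3 lysine methyltransferase complexes. It lies on chromosome 2 from 155390656 to 155473894 (minus strand). Its FPKM was 12.8, 13.1, 10.5 and 9.60 in WT-veh, 13.1, 14.4, 14.1 and 13.4 in WT-DES, 14.1, 20.5, 16.3 and 17.7 in aERKO-veh and 13.9, 16.1, 17.3 and 20.5 in aERKO-DES. The WT-veh samples were below all the others, although the lowest WT-DES sample, at 13.13 FPKM, was next to the highest WT-veh sample, at 13.12 FPKM.

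*Ncoa6* was higher than in WT-veh by 0.53 in aERKO-veh (SE 0.12, adjusted p = 0.0106) and by 0.52 in aERKO-DES (SE 0.12, adjusted p = 0.0232). The first was 0.28 after the length correction (SE 0.08, adjusted p = 0.0346) and the second 0.39 (SE 0.08, adjusted p = 0.00937). The call in aERKO-DES was lost without WT-veh sample 3 or 4 or without aERKO-DES sample 3 or 4, with adjusted p of 0.0704, 0.0825, 0.0722 and 0.085. In WT the change with DES was 0.25 (SE 0.12, adjusted p = 0.0857), which passed without WT-veh sample 2 (0.31, adjusted p = 0.0491), and −0.13 (SE 0.08, adjusted p = 0.144) after the correction. aERKO-DES was 0.27 above WT-DES (SE 0.12, adjusted p = 0.0605) as deposited and 0.52 above it (SE 0.08, adjusted p = 2.11e-05) after the correction, and the deposited difference passed without aERKO-veh sample 1 or 2 or aERKO-DES sample 1 (adjusted p of 0.0472, 0.047 and 0.0199). As with *Nrip1*, the order of the *Ncoa6* values was that of the length trend in 3 of 4 groups, against 2 for *Ncor1*, 1 each for *Ncoa7* and *Med1* and 0 for *Ncoa4* and *Pelp1*.

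Of 9 other tested members of the MLL3/MLL4 complexes 3 rose and 2 fell with DES in WT, near or below the 36.4% and 37.3% of all genes, with a median of 0.14. After the correction 2 rose and 4 fell, with a median of −0.10, and under equal totals, which moved all genes up by a median of 0.38, 7 rose and 1 fell, with a median 0.16 above that of all genes. The largest riser was the demethylase gene *Kdm6a* (10.4 and 17.8 FPKM in WT-veh and WT-DES, log2 change 0.73, SE 0.14), which encodes an eraser of H3K27 methylation, and the largest faller *Dpy30* (103.1 and 50.96 FPKM, −1.001, SE 0.10), a core subunit with a longest transcript of 789 nt.

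*Pelp1* encodes a scaffold that binds ERα and, in the nucleolus, a complex for ribosome maturation. It lies on chromosome 11 from 70392883 to 70410031 (minus strand) and has the shortest longest transcript of the 7, 3435 nt, at which the trend of all genes was 0.01 in WT-DES and −0.02 in aERKO-veh. Its FPKM was 13.7, 13.7, 12.7 and 15.7 in WT-veh, 11.7, 13.1, 12.6 and 11.6 in WT-DES, 11.5, 12.4, 15.9 and 14.6 in aERKO-veh and 15.1, 14.3, 15.4 and 13.7 in aERKO-DES. It varied the least of the 7, by 1.39-fold over the 16 samples.

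The *Pelp1* change in WT-DES was −0.17 (SE 0.09, adjusted p = 0.105) and the interaction −0.28 (SE 0.13, adjusted p = 0.0659), which passed without WT-veh sample 3 or aERKO-veh sample 3 (adjusted p of 0.0485 and 0.0166). aERKO-DES was above WT-DES in 4 of 4 samples, by a log2 change of 0.24 (SE 0.09, adjusted p = 0.0286), or 0.26 (SE 0.09, adjusted p = 0.0167) after the correction. The deposited call was lost without WT-DES sample 1 or 4 or aERKO-DES sample 1 or 3 (adjusted p of 0.0603, 0.0728, 0.0606 and 0.0711). Of the 5 genes of its complex for ribosome maturation 3 fell with DES in WT, where 37.3% of all genes fell, namely *Las1l* (33.7 and 27.4 FPKM, −0.29, SE 0.07), *Nol9* (18.8 and 12.2 FPKM, −0.59, SE 0.07) and *Wdr18* (32.8 and 16.5 FPKM, −0.95, SE 0.08). *Senp3* and *Tex10* did not pass, with −0.11 and −0.13. Under the scaling to equal totals 2 of the 5 fell and 2 rose, and the median of the list was lower than that of all genes (0.13 against 0.38). With DES in aERKO 2 of the 5 rose, where 2.85% of all genes changed, and 0 under equal totals or quantile normalization.

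Lists of other coregulators give the surroundings of these changes. All 5 genes of the p160 and acetyltransferase list rose with DES in WT, as did 36.4% of all genes: *Ncoa3* from 9.28 to 19.5 FPKM (log2 change 0.99, SE 0.10), *Crebbp* from 4.52 to 9.87 FPKM (0.99, SE 0.16), *Ep300* from 9.30 to 16.7 FPKM (0.79, SE 0.15), *Ncoa2* from 6.90 to 12.6 FPKM (0.79, SE 0.13) and *Ncoa1* from 8.29 to 10.8 FPKM (0.34, SE 0.10). Their longest transcripts have a median of 8171 nt, and after the length correction 4 of the 5 rose, *Ncoa1* being at −0.05. All 5 rose under median-ratio scaling and equal totals, and 4 under quantile normalization. In aERKO-veh relative to WT-veh 4 of these 5 rose as deposited, where 10.8% of all genes rose, and 3 after the correction, where 11.5% changed.

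Among the partners of NCoR1, *Tbl1xr1* (6.32 and 11.9 FPKM, 0.82, SE 0.08) and *Tbl1x* (21.2 and 30.0 FPKM, 0.50, SE 0.18) rose in WT-DES and the deacetylase gene *Hdac3* (64.4 and 57.6 FPKM, −0.16, SE 0.06) and *Gps2* (44.0 and 36.6 FPKM, −0.26, SE 0.09) fell. Under quantile normalization and under equal totals neither *Hdac3* nor *Gps2* was called lower. Once corrected for length, *Tbl1x* and *Gps2* no longer passed. Of 10 further corepressors 4 rose and 4 fell, near the shares of all genes (36.4% and 37.3%), from *Lcor*, which binds receptors with an agonist (1.54 and 3.68 FPKM, 0.91, SE 0.29), to *Sin3b*, the scaffold of a deacetylase complex (143.5 and 79.3 FPKM, −0.85, SE 0.09). Under equal totals 7 of the 10 rose and 2 fell, with a median of 0.26 against 0.38 for all genes. Of 12 other coactivators 4 rose and 3 fell, both below those shares, with *Ppargc1a* the largest riser (0.485 and 1.93 FPKM, 0.97, SE 0.12) and *Sra1*, a gene for an RNA coactivator, the largest faller (97.8 and 48.6 FPKM, −0.99, SE 0.08). Of the 12, 9 rose and 3 fell under equal totals, with a median of 0.54 against 0.38 for all genes, and 7 rose and 2 fell under quantile normalization.

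*Pgr*, the progesterone receptor gene and an ERα target in many tissues, rose in WT-DES from 0.685 to 9.88 FPKM (2.64, SE 0.19), and *Esr1* rose from 3.87 to 14.3 FPKM (1.61, SE 0.19). *Esr2*, with means of 0.213 to 0.935 FPKM, was not tested. In each of the 3 scalings tried *Pgr* and *Esr1* were higher in WT-DES. Of all 86 tested genes of these lists 27 rose and 41 fell with DES in WT, with a median of −0.16, where 36.4% of all genes rose and 37.3% fell. Length-corrected values gave 22 and 39. Under equal totals 52 rose and 18 fell, but relative to all genes the list stayed lower (median of 0.27 against 0.38). Under quantile normalization 35 rose and 28 fell, with a median of 0.07 against −0.05 for all genes. In aERKO mice DES changed 6 of the 86, 3 in each direction, where 2.85% of all genes changed. Under equal totals 0 rose and 2 fell there, and under quantile normalization 0 passed.

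**Figure D4:**
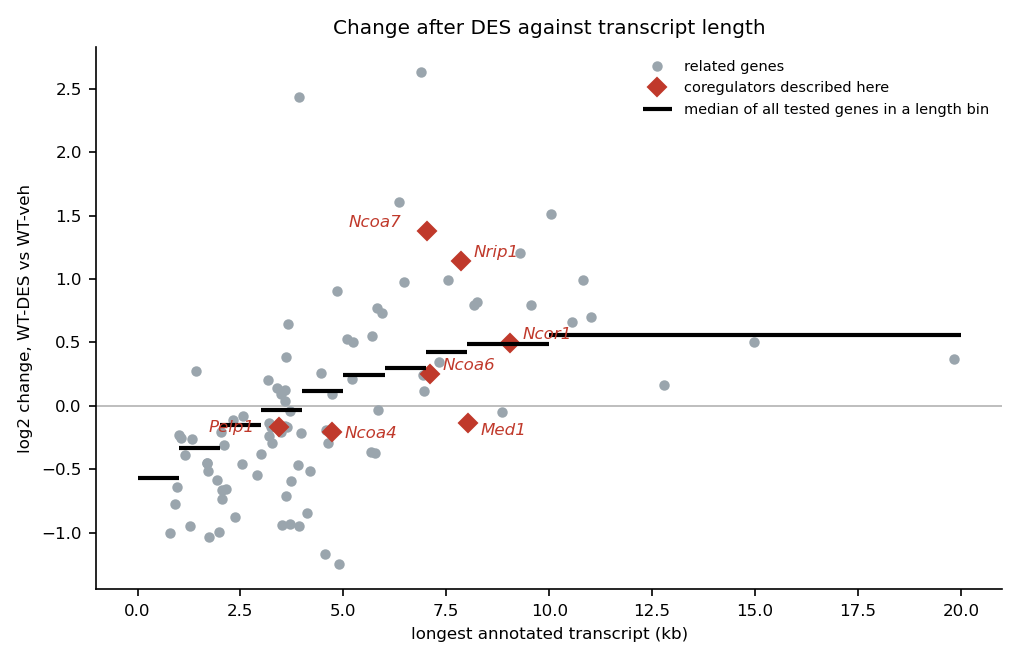
Log2 change in WT-DES relative to WT-veh (vertical axis) against the longest annotated transcript in kb (horizontal axis) for the 7 coregulator genes (red diamonds) and 86 related genes (grey points). Black lines are the medians of all tested genes in bins of length, from −0.57 under 1000 nt to 0.56 at 10000 nt and above, and *Ncor1* at 0.49 lies on its line while *Ncoa7* at 1.38 lies above.

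The genes whose pattern over the 16 samples was nearest to each of the 7 (smallest root mean square difference of centred log2(FPKM + 1) among 11160 genes with a mean of at least 5 FPKM) were *Fbxw17* (0.0985) and *Fam105a* (0.108) for *Ncoa7*. *Fbxw17* had means of 5.64, 15.9, 5.82 and 5.03 FPKM in WT-veh, WT-DES, aERKO-veh and aERKO-DES, and *Fam105a* 3.66, 11.2, 4.10 and 3.33 FPKM. Both have shorter longest transcripts, 2316 and 3043 nt. For *Ncor1* they were *Kat6b* (0.0792) and *Dicer1* (0.091), with longest transcripts of 7699 and 9851 nt, and for *Ncoa6* *Epg5* (0.0779) and *1110037F02Rik* (0.0914), of 9660 and 6571 nt. For *Nrip1* they were *AK140725* (0.153) and *Mdm4* (0.191), and for *Ncoa4* *Galnt18* (0.185) and *Ninl* (0.221), the widest differences of the set. For *Med1* they were *Dcaf6* (0.0717) and *Gapvd1* (0.0728), and for *Pelp1* *Eftud2* (0.0815) and *Fbrs* (0.0822).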

How the data were processed

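RNA-seq expression of week 5 SVs was analysed in 4 groups of 4 samples, grouped by the sample labels. Per the study's methods the authors kept paired-end reads with an average quality score above 20, aligned them to mm10 with TopHat 2.0.4 and assembled transcripts with Cufflinks 2.0.2. The authors deposited FPKM per gene (31274 genes, 2 decimals), which divides by transcript length and library size. The annotation behind the table and any further scaling are not given in the sources used here. FPKM holds no counts, so the depth per sample is unknown and no count test was run.

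Values were analysed as log2(FPKM + 1), so folds of low genes are understated. A linear model of all 16 samples was fitted with limma 3.58.1 in R 4.3.3 (eBayes with trend) to 15988 genes whose mean FPKM exceeded 1 in some group. P-values are two-sided and adjusted by Benjamini-Hochberg over all genes tested. A gene changed at an adjusted p of at most 0.05, and DEG thresholds, after those of the study, add a 1.5-fold ratio of means. SE is the standard error from the model. For the length correction, expression relative to the overall mean was smoothed in every sample against the log2 length of the longest GENCODE M21 transcript (lowess, span 0.3), and the smoothed curve was subtracted. Symbols matched this annotation for 22557 genes, and synonyms for 967. Promoter windows are from RefSeq (GRCm38.p6), which held 12 for the 7 genes. Protein sequences were not used here.

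The genes, lists and tests were chosen with earlier results of these data known. Named genes were the 7, *Esr1*, the largest riser and faller that passed in each list of related genes (every gene of lists of up to 5), and the 2 nearest patterns of each of the 7, and *Cd52* was singled out after its values were seen. Some named items are not reported here. Alternatives were another pseudocount (0.1), other minima of FPKM, the groups compared alone, no trend, sample weights, a replicate block, 3 other scalings, stricter thresholds, other length measures and leaving out each sample. Nothing in the sources used here ties samples to litters, and p-values measure only the spread between these samples. The steps were tested on simulated data. Tables used pandas 2.3.3 and numpy 2.4.6 under Python 3.11.15, and plots matplotlib 3.10.9.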

Additional observations from a re-analysis of the deposited data

Results flagged for a closer look

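In limma's test of the interaction, the response to DES of WT exceeded that of aERKO for 4 genes, with log2 differences of 1.72 for *Nrip1*, 1.62 for *Ncoa7*, 0.62 for *Ncor1* and 0.46 for *Ncoa4*. The *Ncoa7* difference came with separate groups, since all 4 WT-DES samples were above the other 12. The *Ncoa4* difference joined a fall in aERKO that passed the test with a change in WT that did not. That difference was 0.24 (adjusted p = 0.217) after the length correction on the longest transcript, and its call was kept on the median transcript. With sample weights or quantile normalization the call was lost. For *Ncor1* the difference was as large as the trend of all genes at its length, and its value after the length correction was 0.00 on the longest transcript and 0.91 (adjusted p = 0.00236) on the median transcript. Interactions were called for 71.5% of all genes. In 28 groups of 4 samples, Dixon's ratio set no sample of the 7 genes apart.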

How the results depend on the processing

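Over 42 member values, 1220 of 1358 recomputed values kept direction and side of the threshold, 45 lost a call, 44 gained one and 49 changed sign. The *Ncoa7* and *Nrip1* changes in WT-DES and their interactions kept direction and call in every alternative run. The cause of the differences below was not tested, and the depth behind the values, which limits their precision, is unknown.

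At an adjusted p of at most 0.01 the number of genes called was 1 in aERKO-veh, 0 with DES in aERKO, 0 in aERKO-DES against WT-veh and 2 for the interaction. With the 1.5-fold ratio it was 1 in aERKO-veh, 0 in aERKO-DES against WT-veh and 1 between the DES groups. With no minimum on FPKM it was 0 in aERKO-DES against WT-veh. Sample weights called 3 with DES in aERKO (6678 of 15988) and 2 in aERKO-DES against WT-veh (3949). Quantile normalization called 5 in WT-DES (11273 of 15988), 0 with DES in aERKO (5) and 6 between the DES groups (11284). Equal totals without the 20 highest genes called 6 in WT-DES (12207 of 16198). The length correction called 3 in aERKO-veh (1727 of 15026), and on the longest coding transcript 5 in WT-DES (10567 of 14401) and 3 in aERKO-veh (1383). Leaving out each sample gave 3 to 5 in WT-DES (5 without WT-veh sample 2), 3 to 5 in aERKO-veh, 0 to 1 with DES in aERKO, 0 to 2 in aERKO-DES against WT-veh, 2 to 4 between the DES groups and 4 to 5 interactions. Over all genes the same order gave 11200 to 12071, 1549 to 5127, 1 to 1430, 378 to 2286, 11343 to 12048 and 10899 to 11892.

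Signs changed as follows, on the log2 scale. After the length correction *Ncoa6* was −0.13 in WT-DES, 0.11 with DES in aERKO and −0.24 for the interaction, *Ncoa7* −0.16 and *Med1* −0.046 in aERKO-veh, *Ncor1* 0.024 and *Med1* 0.046 with DES in aERKO, and *Ncor1* 0.16 between the DES groups. On the longest coding transcript, chosen like the median transcript after seeing the data, these were −0.15, 0.12 and −0.27, −0.17 and −0.057, 0.028 and 0.051, and 0.17, with *Ncor1* at −0.017 for the interaction and *Med1* at −0.0060 in aERKO-DES against WT-veh. On the median transcript *Ncoa4* was 0.04 in WT-DES and −0.11 between the DES groups, and *Ncoa6* 0.017 with DES in aERKO. With equal totals *Ncoa4*, *Med1* and *Pelp1* were 0.19, 0.28 and 0.23 in WT-DES, *Ncoa4*, *Ncoa6*, *Med1* and *Pelp1* −0.27, −0.087, −0.080 and −0.12 between the DES groups, *Pelp1* 0.13 in aERKO-veh and −0.015 with DES in aERKO, and *Med1* 0.49 and *Pelp1* 0.25 for the interaction. Sample weights gave *Pelp1* 0.083 in aERKO-veh and *Med1* 0.0022 for the interaction. Leaving out each sample moved *Pelp1* in aERKO-veh from −0.11 to 0.032, *Ncoa6* with DES in aERKO from −0.10 to 0.074 and the *Med1* interaction from −0.073 to 0.0050.

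The replicate block alone gave 3, 5, 1, 1, 3 and 4 changed genes in the 6 comparisons, as without it. The replicate block with length correction gave 2 in aERKO-veh, where *Ncoa4* had an adjusted p of 0.0533, and the same sign changes as the length correction. The samples share only a number: deviations of same-numbered samples from their group means correlated at −0.21 to 0.28 (median −0.02, above 0.1 in 3 of 24 pairs), and 3 of 16 samples correlated best with their own number, as a hint from the data.

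Over all genes, those called with DES in aERKO numbered 455, but 5 with quantile normalization, 29 with only the groups compared, 48 with no minimum, 266 with equal totals, 753 with a pseudocount of 0.1, 910 without WT-DES in the fit, 6678 with sample weights and 1 to 1430 as each sample was left out. In aERKO-veh they numbered 4168, but 1727 after the length correction (1383 on coding transcripts, 1699 with the block), 8869 with sample weights and 1549 to 5127 as each was left out. In aERKO-DES against WT-veh they numbered 1288, but 723 with no minimum, 3949 with sample weights and 378 to 2286 as each was left out.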
